A study of Mus musculus with 9 samples.

Results

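The Fanconi anemia genes are described here across 0, 1 and 6 h of differentiation of adult neural stem cells (NSCs). They are the 10 genes Fanca, Fancb, Fancc, Fancd2, Fance, Fancf, Fancg, Fanci, Fancl and Fancm, taken by name out of 48526 genes in the count table, and all 10 passed the filter on low counts. The NSCs came from the subependymal zone (SEZ), the stem cell niche along the lateral ventricles, of C57BL/6 mice, and they were grown as neurospheres with EGF and FGF. The libraries at 0 h are these undifferentiated cells, and those at 1 h and 6 h are cells from the same kind of culture after growth on an adhesive substrate in medium that lacked EGF and kept FGF. Each time had 3 replicates, which gives 9 libraries of mRNA with total counts between 65871454 and 105592597. The labels do not say whether the cells at 0 h were also attached. The paper's Methods state that cells fixed soon after induction were first seeded in medium with both growth factors. The Methods do not say whether this held for the sequenced cells.

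Fanconi anemia proteins repair DNA interstrand crosslinks and protect stalled replication forks. A nuclear core complex recognises the lesion and attaches a single ubiquitin to each of FANCD2 and FANCI, and the modified pair brings in nucleases and homologous recombination proteins. Loss of the pathway is best known for bone marrow failure through exhaustion of haematopoietic stem cells, and the pathway also acts in neural progenitors, which replicate their DNA often.

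All 10 genes were expressed in every library, with counts from at least 188 (Fancf) to at most 5977 (Fanci). At 6 h against 0 h, 6 of the 10 fell with the replicate number as a block, namely Fancm, Fancb, Fancc, Fance, Fancd2 and Fanci, by between 0.16 and 0.28 on the log2 scale. None of the 10 rose at 6 h against 0 h, where 3282 of 18858 tested genes did, and at 1 h against 0 h 0 of 10 changed. These 6 calls rest on comparing libraries with the same replicate number, since without the block none of them passed in edgeR (adjusted p of 0.0798 to 0.738), and DESeq2 called 1 of them, Fancm. Most calls over the 18858 tested genes rest on it too. There edgeR called 3299 lower with the block and 180 without it, and DESeq2 813 without it. In bulk samples, fewer cells of a type and less RNA per cell cannot be told apart.

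The promoters shown are those of the members with a match to 1 of 3 E2F heptamers, TTCCCGC or TTGGCGC or TTCGCGC, since E2F factors are known to drive genes of the S phase. RefSeq promoters of 300 bases (250 before the start site and 50 after, GRCm38.p6) were held for 9 of the 10 members, all except Fancd2. Each line gives 200 bases before to 30 after the start site, 5′ to 3′ along the gene, with the heptamer in capitals; a match on the opposite strand appears as its reverse complement.
Fancm, chr12:65075403-65075632, + strand: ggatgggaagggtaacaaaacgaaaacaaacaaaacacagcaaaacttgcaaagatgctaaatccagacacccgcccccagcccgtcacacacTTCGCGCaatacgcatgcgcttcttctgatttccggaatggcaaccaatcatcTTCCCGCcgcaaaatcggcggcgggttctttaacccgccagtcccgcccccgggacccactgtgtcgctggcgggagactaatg
Fancg, chr4:43010272-43010501, - strand: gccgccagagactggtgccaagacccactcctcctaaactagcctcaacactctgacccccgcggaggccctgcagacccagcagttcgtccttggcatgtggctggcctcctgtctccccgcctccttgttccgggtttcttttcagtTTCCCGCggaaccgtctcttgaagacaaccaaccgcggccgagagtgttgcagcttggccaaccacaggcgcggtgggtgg
Fancb, chrX:164980392-164980621, + strand: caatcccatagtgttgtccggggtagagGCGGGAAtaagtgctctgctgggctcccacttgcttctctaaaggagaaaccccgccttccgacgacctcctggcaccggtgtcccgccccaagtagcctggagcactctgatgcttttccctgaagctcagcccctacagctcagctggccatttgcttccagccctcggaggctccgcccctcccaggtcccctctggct
Fancf, chr7:51862238-51862467, - strand: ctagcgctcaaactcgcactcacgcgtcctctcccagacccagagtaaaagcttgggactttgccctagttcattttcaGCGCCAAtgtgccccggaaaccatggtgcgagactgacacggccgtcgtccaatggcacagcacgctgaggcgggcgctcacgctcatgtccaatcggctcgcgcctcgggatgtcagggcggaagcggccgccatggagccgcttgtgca
Fanci, chr7:79392138-79392367, + strand: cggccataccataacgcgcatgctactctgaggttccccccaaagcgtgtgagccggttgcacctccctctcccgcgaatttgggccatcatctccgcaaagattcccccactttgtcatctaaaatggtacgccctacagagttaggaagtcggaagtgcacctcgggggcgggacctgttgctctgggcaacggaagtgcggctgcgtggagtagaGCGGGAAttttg

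The heptamers were found, on either strand, in 5 of these 9 promoters and in 8.07% of 32851 mouse promoters of the same length. Fancm held a pair of them, and the match in Fancf shares letters with a CCAAT sequence. Other motifs were the CCAAT box (CCAAT, in 6 of 9 against 37.4% of all promoters) and the GC box (GGGCGG, in 6 of 9 against 35.7%). The CHR element of mitotic genes (TTTGAA) was in 0 of 9 against 17.9%, the ETS core CCGGAAG only in Fance of the 9 against 8.86%, the CRE (TGACGTCA) in 0 against 1.79% and the YY1 letters AAGATGGC in 0 against 2.75%. Of the members with the heptamer, Fancm, Fancb and Fanci fell at 6 h against 0 h, and Fancf and Fancg did not pass. Of those with a promoter but no heptamer, Fancc and Fance fell, and Fanca and Fancl did not pass. The bases from 200 before to 30 after the start site lay wholly inside the GENCODE M21 gene span for some members. These were Fancg, Fanci, Fancl (chr11:26386884-26387113) and Fancc (chr13:63431716-63431945). The RefSeq start site used for them is thus not the outermost annotated 5′ end of the gene. Whether the heptamer goes with the call was not tested. A match is a string of letters and was not tested for binding, and the motifs were chosen after matches in these promoters had been seen.

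The other sequence shown belongs to Fancc, because the study made hybridisation probes for the mRNA of this gene and for 1 of its introns, and because it bears on what a gene count holds. The paper shows Fancc as an example of genes that it describes as spliced normally in NSCs and detaining introns once differentiation is induced. That result was not examined here. The first 150 bases of the intron probe lie on the minus strand of GRCm38 and are given 5′ to 3′ along the gene.
Fancc intron probe, chr13:63331641-63331790: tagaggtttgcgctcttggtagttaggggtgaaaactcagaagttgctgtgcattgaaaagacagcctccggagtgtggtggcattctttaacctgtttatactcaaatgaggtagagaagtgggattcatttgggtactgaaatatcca

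Within GENCODE M21, the 399 matched bases of this probe (chr13:63331392-63331790) lie inside Fancc-205, a transcript annotated as a retained intron, and 0 other Fancc models cover them. Of the mRNA probe, 399 bases matched the 3′ UTR of the coding transcript Fancc-201 (chr13:63305258-63305656). Both probe sequences were read from a shortened listing, and any bases beyond the matched ones were not placed. Bases found only in retained intron transcripts make up 25.0% of the exonic length of Fancc, 28.8% of Fancd2, 26.4% of Fance, 25.1% of Fancm, 23.0% of Fancg and 17.1% of Fanca, and 0% of Fancb, Fancf, Fanci and Fancl. Reads that lie wholly in such bases enter a count per gene only where the annotation used for counting held such a model. Its release is not given in the sources used here. Reads that reach from an exon into an intron may be counted without such a model, so a count can hold unspliced RNA for any gene with introns. Of the members that fell at 6 h against 0 h, Fancc, Fancd2, Fance and Fancm have such bases and Fancb and Fanci have none. Whether these bases bear on the falls was not tested.

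**Figure D1:**
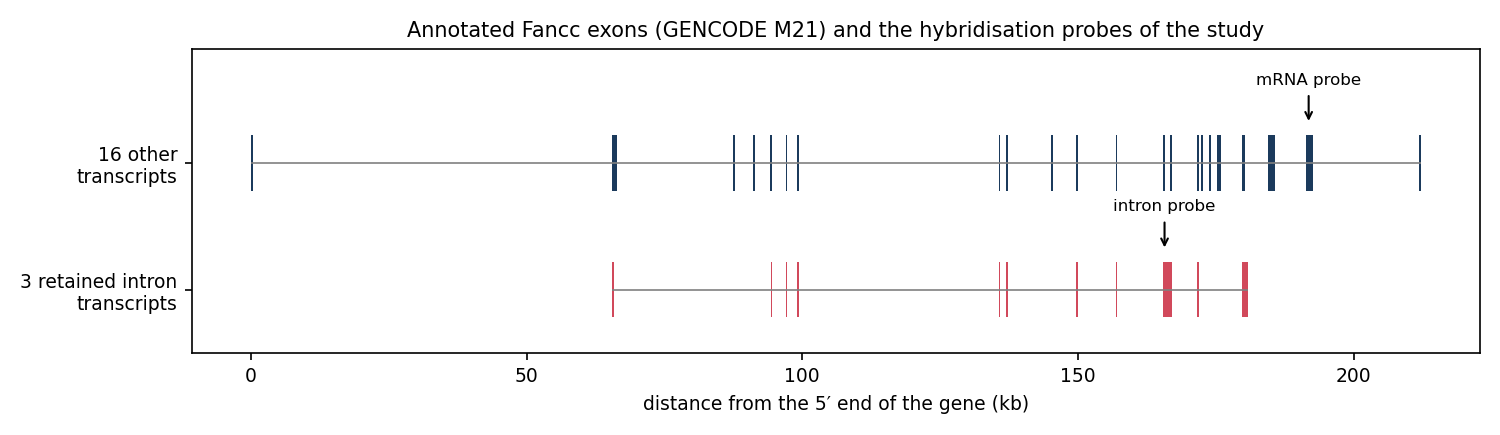
Map of the annotated exons of Fancc along the gene, in kb from its 5′ end, for the 3 transcripts annotated as retained introns and the 16 other transcripts, with arrows at the positions of the intron and mRNA probes. Exons shorter than the line width are drawn wider than scale. The arrows mark the matched bases of each probe. Those of the intron probe sit in an exon block that only a retained intron transcript has.

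Per base of exon, the levels at 0 h ran from Fanci at 9.61 ± 1.87 RPKM (SD, n = 3), the highest, to Fancc at 2.19 ± 0.14 RPKM. RPKM here is CPM (the counts scaled to a common library size) divided by the exonic length in kb. Between them stood Fancd2 at 7.63 ± 1.17 RPKM, Fance at 6.05 ± 0.63 RPKM, Fancb at 5.03 ± 0.22 RPKM, Fancg at 4.82 ± 0.39 RPKM, Fancm at 4.67 ± 0.15 RPKM, Fanca at 4.34 ± 0.60 RPKM, Fancl at 2.48 ± 0.29 RPKM and Fancf at 2.30 ± 0.70 RPKM. So FANCI and FANCD2, the substrates of the core complex, had the highest RNA levels, and FANCL, its ubiquitin ligase, was among the lowest 3. Of neighbours in this order, only Fance against Fancb and Fanca against Fancl had libraries at 0 h that did not overlap. The order depends on the length used: divided by the longest coding transcript instead, Fancc moved from place 10 to place 7, at 5.80 ± 0.37 RPKM, and Fanca from 7 to 4, at 8.48 ± 1.17 RPKM. By exonic length at 6 h, Fancg moved from place 5 to 3 and Fanca from 7 to 5.

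FANCM is the DNA translocase that anchors the core complex to chromatin, and its gene had the most stable fall. Fancm (chr12:65075603-65132058) stood at 50.2, 47.1 and 48.9 CPM at 0 h in replicates 1, 2 and 3, at 48.9, 47.1 and 43.2 CPM at 1 h, and at 41.0, 39.6 and 40.0 CPM at 6 h. All 3 libraries at 6 h lay below every earlier one. The fall of Fancm from 0 h to 6 h had a log2 fold change of -0.28 ± 0.05 (SE; adjusted p = 0.00135, edgeR quasi-likelihood test with Benjamini-Hochberg adjustment over 18858 genes). With any 1 of the 9 libraries removed it still passed, at an adjusted p of at most 0.0154. Of the partners of FANCM, Cenps, a histone-fold protein, fell by 0.39 ± 0.08 (edgeR adjusted p = 0.00241), while Cenpx, which pairs with it, had a log2 fold change of 0.12 ± 0.08 and Faap24 of -0.04 ± 0.09.

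FANCA, FANCG and FAAP20 form an arm of the core complex in which no gene passed the test at 6 h against 0 h. Fanca (chr8:123268300-123318576) had 40.0, 32.1 and 42.0 CPM at 0 h, 38.9, 33.2 and 37.5 CPM at 1 h, and 44.2, 28.6 and 43.6 CPM at 6 h. Replicates 1 and 3 were higher at 6 h than at 0 h and replicate 2 was lower, and the log2 fold change was 0.02 ± 0.08 (edgeR adjusted p = 0.891), with a sign that turned to -0.03 when trends in GC content and length were removed. Fancg (chr4:43002343-43010506) had 19.5, 16.7 and 18.6 CPM at 0 h, 17.3, 17.2 and 19.2 CPM at 1 h, and 22.6, 18.9 and 19.6 CPM at 6 h. It was the only member with a higher value at 6 h than at 0 h in each of the 3 replicates, with a log2 fold change of 0.16 ± 0.07 that did not pass (edgeR adjusted p = 0.108). In a fit of only the 6 libraries compared, Fancg passed, at 0.16. Faap20 had 0.12 ± 0.06, also not past the threshold.

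FANCB, FANCL and FAAP100 make up the catalytic module, in which FANCL is the E3 ligase. Fancb (chrX:164980592-164997272) had 15.3, 14.3 and 15.5 CPM at 0 h, 15.4, 12.6 and 15.5 CPM at 1 h, and 13.5, 9.84 and 14.1 CPM at 6 h. The 3 libraries at 6 h lay below those at 0 h, and Fancb fell by 0.28 ± 0.08 (edgeR adjusted p = 0.0145). Replicate 2 carried the largest of the 3 differences (-0.54 on the log2 scale, against -0.18 and -0.13), and without 0 h replicate 2 or without 6 h replicate 2 the fold change was -0.18 and the call was lost. Fancl (chr11:26386135-26471876) had 9.50, 7.76 and 7.80 CPM at 0 h, 10.5, 8.52 and 8.41 CPM at 1 h, and 8.86, 6.92 and 7.33 CPM at 6 h. In each replicate Fancl was highest at 1 h and lowest at 6 h, with differences from 0 h of 0.13 ± 0.07 at 1 h and -0.12 ± 0.07 at 6 h that did not pass (edgeR adjusted p = 0.372 and 0.234). Ube2t, the E2 enzyme that works with FANCL, had -0.14 ± 0.07 at 6 h, and Faap100 had -0.005 ± 0.09, neither of them past the threshold.

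FANCC, FANCE and FANCF link the substrates to the complex. Fancc (chr13:63285043-63497278) had 17.8, 17.5 and 19.7 CPM at 0 h, 18.2, 17.4 and 20.7 CPM at 1 h, and 16.3, 15.1 and 17.3 CPM at 6 h. All libraries at 6 h were below all at 0 h and at 1 h, by a small margin, and Fancc fell by 0.18 ± 0.06 (edgeR adjusted p = 0.0352). This call was close to the threshold: removing any library other than 1 h replicate 3 ended it, with a fold change between -0.20 and -0.15 and an adjusted p of at most 0.176. Fance (chr17:28313519-28326572) had 20.6, 17.0 and 20.3 CPM at 0 h, 19.9, 15.6 and 22.3 CPM at 1 h, and 18.2, 14.3 and 16.2 CPM at 6 h. It was lower at 6 h in every replicate although the groups overlapped, because replicate 2 was low at all times, and it fell by 0.25 ± 0.07 (edgeR adjusted p = 0.0177). Its call was lost without 0 h replicate 1 (-0.26), without 0 h replicate 2 (-0.22) and without 6 h replicate 3 (-0.18). Fancf (chr7:51860577-51862267), a gene with 1 exon and the lowest counts of the 10, had 4.77, 2.54 and 4.37 CPM at 0 h, 4.52, 3.12 and 5.06 CPM at 1 h, and 3.43, 2.81 and 3.72 CPM at 6 h. Its replicates went both ways, with -0.20 ± 0.12 at 6 h against 0 h (edgeR adjusted p = 0.216), and it passed only when trends in GC content and length were removed (-0.31).

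FANCD2 and FANCI, the pair that receives the ubiquitin, both fell. Fancd2 (chr6:113531682-113597017) had 65.9, 49.8 and 65.9 CPM at 0 h, 65.8, 47.4 and 54.9 CPM at 1 h, and 57.0, 43.3 and 54.0 CPM at 6 h. Within each replicate the level at 6 h was the lowest of the 3 times, and Fancd2 fell by 0.23 ± 0.06 (edgeR adjusted p = 0.00562), a call that, of the 9 libraries, only the removal of 0 h replicate 3 ended (-0.18). Fanci (chr7:79391929-79450264) had 56.4, 44.3 and 65.8 CPM at 0 h, 54.2, 43.4 and 58.0 CPM at 1 h, and 53.2, 39.6 and 55.8 CPM at 6 h. It fell by 0.16 ± 0.05 (edgeR adjusted p = 0.0280) with groups that overlapped, and the call was lost without 0 h replicate 1, 2 or 3 and without 6 h replicate 2 or 3 (-0.19 to -0.12). Usp1 and Wdr48, whose products form the enzyme that removes the ubiquitin again, had -0.12 ± 0.05 and -0.02 ± 0.05 and did not pass.

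**Figure D2:**
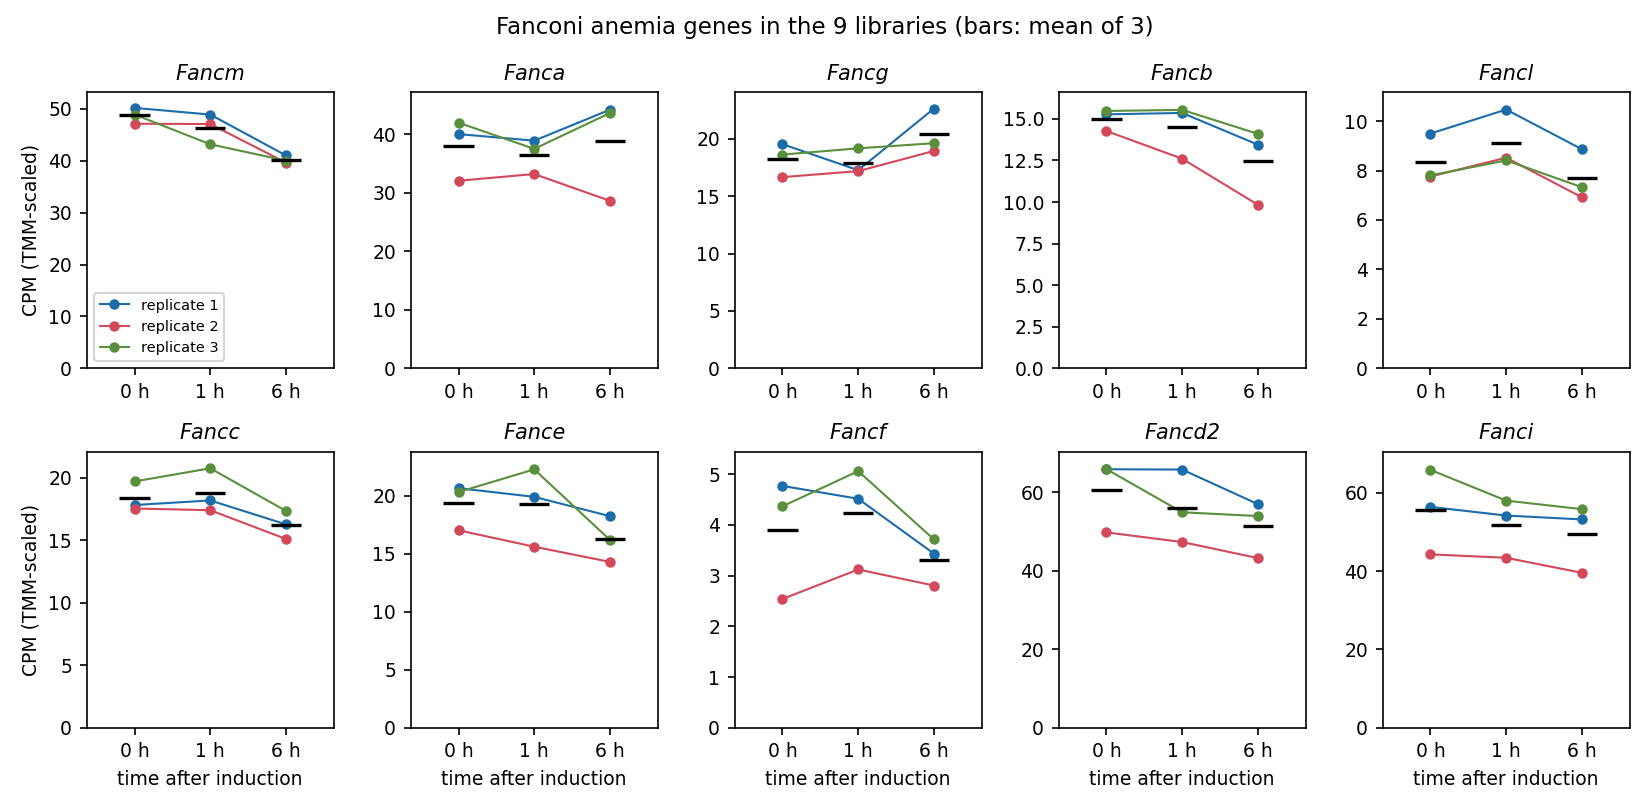
TMM-scaled counts (CPM, linear axes from 0) of the 10 Fanconi anemia genes at 0, 1 and 6 h, with 1 line per replicate number and a bar at the mean of 3 libraries. Fancm drops to between 39.6 and 41.0 CPM at 6 h in all 3 replicates, Fancg is higher at 6 h than at 0 h in all 3, and replicate 2 is the lowest line for most genes.

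The share of members called lower at 6 h was 6 of 10, and over all tested genes it was 17.5%. Their median log2 fold change was -0.19, against a median of 0.00 over all tested genes. In 3 members, Fancb, Fancc and Fancm, the 3 libraries at 6 h were below the 3 at 0 h, as in 12.1% of all tested genes. The number called lower was 2 with 0 h replicate 2 removed, and 3 with replicate 1 or 3 of 0 h or replicate 2 or 3 of 6 h removed. Replicate 2 was the lowest of its time in 10 of 10 members at 0 h, 8 at 1 h and 10 at 6 h, against 38.7%, 34.6% and 37.8% of all tested genes.

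The step from 1 h to 6 h held lower calls in 6 of 10 members, against 17.5% of all tested genes, and shares its libraries at 6 h with the comparison above. Fancf fell by 0.33 ± 0.12 (edgeR adjusted p = 0.0423), Fancl by 0.25 ± 0.07 (0.0174), Fance by 0.24 ± 0.07 (0.0224), Fancb by 0.23 ± 0.08 (0.0414), Fancc by 0.21 ± 0.06 (0.0158) and Fancm by 0.20 ± 0.05 (0.00918). Fancl and Fancf thus passed against 1 h and not against 0 h, while Fancd2, at -0.12 ± 0.06, and Fanci, at -0.07 ± 0.05, passed against 0 h and not against 1 h. Whether the 2 steps differ was not tested. Fancg had 0.19 ± 0.07 (edgeR adjusted p = 0.0608) and Fanca 0.06 ± 0.08 (0.547). Without the block none of the 6 passed in edgeR (adjusted p of 0.167 to 0.584), and DESeq2 called 1, Fancm. Over all tested genes, edgeR called 3309 lower with the block and 125 without it, and DESeq2 763 without it. The number called lower was 1 without 1 h replicate 2, 2 without replicate 1 of 1 h or 6 h, and 3 without replicate 2 or 3 of 6 h. Each of these 6 calls was lost without some library: Fancm without replicate 1 of 1 h or 6 h or replicate 2 of 1 h (-0.19 to -0.17), Fance without replicate 3 of 1 h or 6 h (-0.15 and -0.16), Fancc without replicate 2 of 1 h or 6 h or replicate 3 of 6 h (-0.21 to -0.19), Fancl without replicate 1 or 2 of either time (-0.25 to -0.21), Fancf in 6 of 9 fits and Fancb in 7 of 9.

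One hour after induction, the members had not moved beyond the spread. With edgeR 0 of 10 passed at 1 h against 0 h, where 3.51% of all tested genes did in either direction, 0 had an unadjusted p under 0.05, and DESeq2 with and without the block also called 0. The log2 fold changes lay between -0.11 ± 0.06 for Fancd2 and 0.13 ± 0.12 for Fancf, with a median of -0.04 and adjusted p between 0.309 and 0.951. The standard errors, 0.05 to 0.12, set the size of a change that could be seen at this replication.

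**Figure D3:**
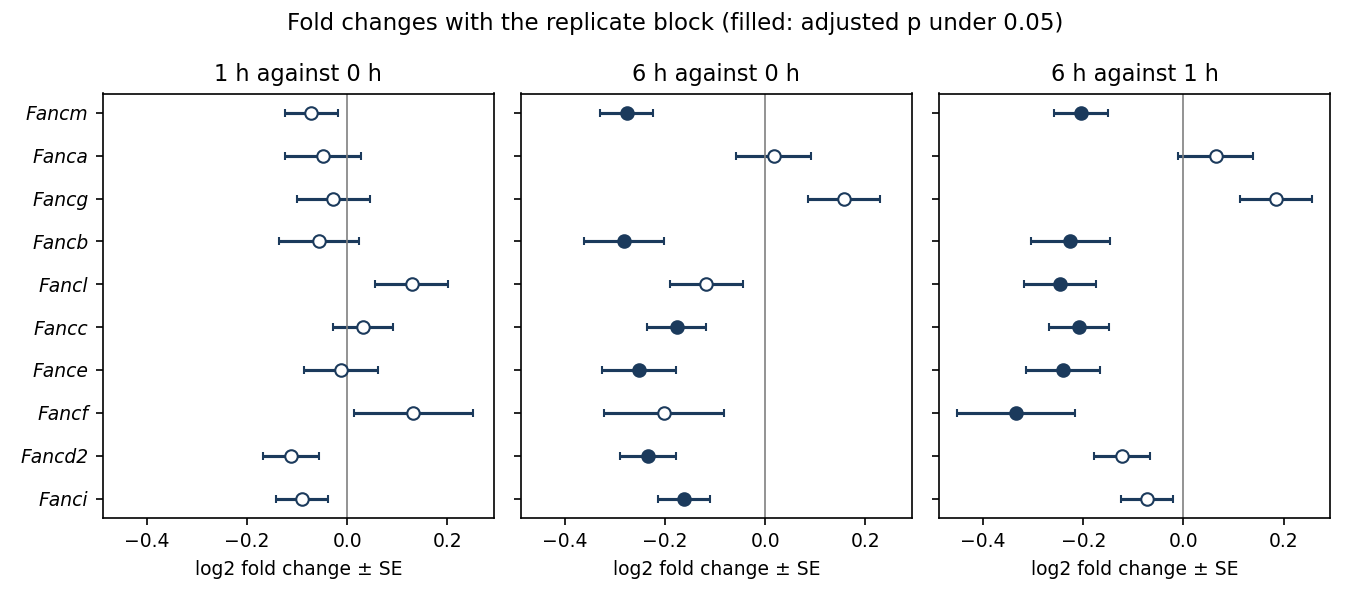
Log2 fold changes of the 10 genes with their SE (bars) for 1 h against 0 h, 6 h against 0 h and 6 h against 1 h, from the fit with the replicate block; filled points have an adjusted p under 0.05. No point is filled at 1 h against 0 h, 6 are filled in each of the other comparisons, and Fanca and Fancg lie to the right of 0 at 6 h.

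Of 34 other genes of the pathway, 13 fell and 1 rose at 6 h against 0 h. Over all tested genes, 17.5% (3299 of 18858) were called lower and 3282 higher. The median log2 fold change of the 34 was -0.13. Of those that fell, Brip1, the helicase FANCJ, fell by 0.50 ± 0.10 (edgeR adjusted p = 0.00135), Brca1, which acts in homologous recombination, by 0.40 ± 0.08, and Blm, a helicase that dissolves recombination intermediates, by 0.34 ± 0.07. Rev1, a translesion polymerase that bypasses the unhooked crosslink, fell by 0.32 ± 0.06, beside the fall of Cenps given above. The 1 gene that rose was Mad2l2, a subunit of the translesion polymerase zeta, at 0.18 ± 0.06 (edgeR adjusted p = 0.0383), a call lost without replicate 2 or 3 of 0 h and without replicate 1 or 2 of 6 h (0.16 to 0.17), and at 0.07 with GC and length trends removed. Brip1 had 36.7, 27.6 and 34.5 CPM at 0 h and 27.3, 16.0 and 27.8 CPM at 6 h, so each replicate was lower although the groups overlapped. Brca1 had 94.5, 77.5 and 86.7 CPM at 0 h and 74.0, 50.9 and 71.9 CPM at 6 h, without overlap. Palb2, Slx4 and Ercc4, a scaffold of BRCA2, a nuclease scaffold and a nuclease, did not pass, with fold changes between -0.17 ± 0.07 for Palb2 and 0.10 ± 0.05 for Slx4. Brca2 itself fell by 0.21 ± 0.07 and Ercc1 by 0.24 ± 0.06 (edgeR adjusted p of 0.0359 and 0.0115). Without the block edgeR called 0 of the 34 and DESeq2 called 2, both lower, and 8 fell without 0 h replicate 2. At 6 h against 1 h 7 of the 34 (20.6%) fell and 4 rose, with a median of -0.007. Over all tested genes, 17.5% (3309 of 18858) were called lower and 3401 higher in that comparison.

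At 1 h against 0 h 3 of the 34 fell and 0 rose, beside 404 of 18858 tested genes that fell and 257 that rose. Fan1, a nuclease recruited by ubiquitinated FANCD2, had 14.8, 14.2 and 14.3 CPM at 0 h, 12.4, 10.6 and 9.83 CPM at 1 h and a mean of 14.8 ± 0.23 CPM (SD, n = 3) at 6 h. The 3 libraries at 1 h lay below those of both other times, and Fan1 fell by 0.40 ± 0.08 (edgeR adjusted p = 0.0104). Top3a, the topoisomerase that works with BLM, fell by 0.26 ± 0.06 and Rfwd3, a ubiquitin ligase that acts on RPA, by 0.20 ± 0.05 (edgeR adjusted p of 0.0229 and 0.0493). In edgeR 0 of the 34 passed at 1 h without the block, without 0 h replicate 2 or without 0 h replicate 3, and DESeq2 without the block called 1, lower.

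Fanconi anemia genes act mainly in dividing cells, so 2 cell cycle lists are set beside them. Over all tested genes, 17.5% (3299 of 18858) were called lower and 3282 higher at 6 h against 0 h. Of 36 DNA replication genes, 34 fell and 0 rose at 6 h against 0 h, with a median of -0.37, led by Ccne2 (cyclin E2, -0.71 ± 0.09), Pola1 (polymerase alpha, -0.65 ± 0.07) and Mcm6 (replicative helicase, -0.53 ± 0.07). Of 24 mitosis genes, 7 fell and 1 rose, with a median of -0.07, Mybl2, a factor that activates late cell cycle genes, at -0.43 ± 0.07 and Ccnb2 (cyclin B2) at 0.34 ± 0.11. Without the block edgeR called none of these replication genes (adjusted p of 0.0605 to 0.786 for the 34) or mitosis genes (0.375 to 0.856 for the 8). At 1 h against 0 h 2 replication genes and 1 mitosis gene fell with the block, beside 404 of 18858 tested genes. The median of the Fanconi members, -0.19, lay between those of the 2 lists, and whether the lists differ was not tested.

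**Figure D4:**
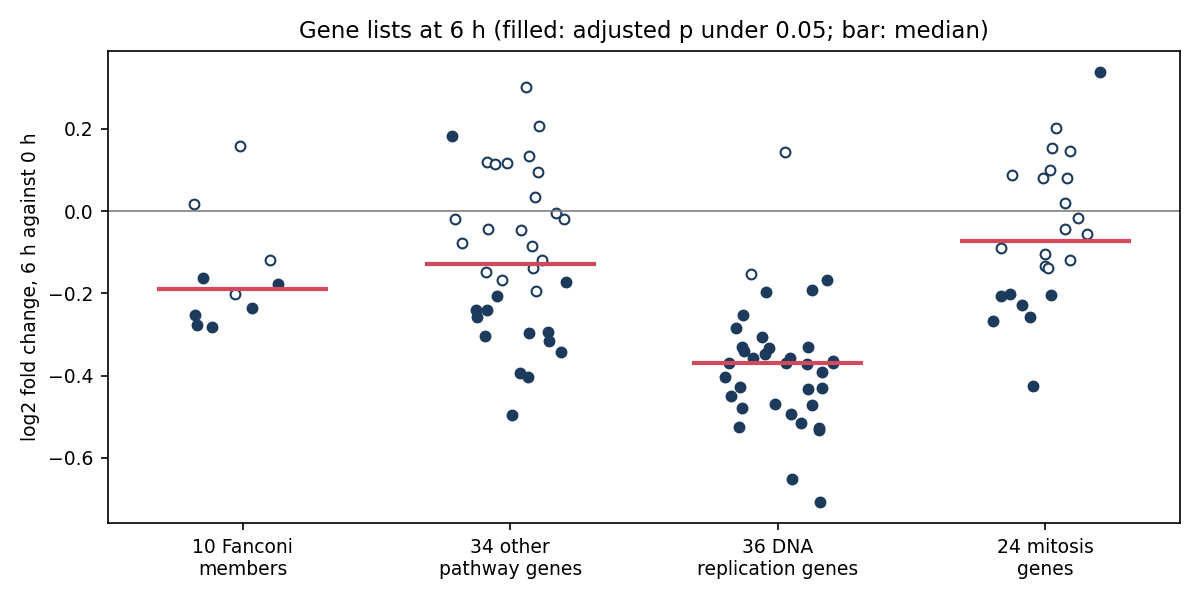
Log2 fold change at 6 h against 0 h of each gene in 4 lists, as points spread sideways at random, with filled points for an adjusted p under 0.05 and a bar at the median of the list. The medians are -0.19 for the 10 Fanconi anemia genes, -0.13 for the 34 other pathway genes, -0.37 for the 36 DNA replication genes and -0.07 for the 24 mitosis genes.

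Genes whose pattern over the 9 libraries was most like that of Fancc, after the mean of each replicate number had been subtracted, were Pdgfa, Ap1s2, Tcp1, Rab10os and Cct2, with Pearson r from 0.996 to 0.997 among 13605 genes with a mean of at least 1 CPM. Tcp1 and Cct2 encode subunits of the cytosolic chaperonin that folds actin and tubulin, and Pdgfa a growth factor. For Fancd2 they were Senp5, a SUMO protease, Bbx, Relch, Ythdc2, an RNA helicase with an m6A-binding domain, and Fcho2, with r from 0.989 to 0.997. These are the highest of many correlations over 9 points that share their libraries and carry no test.

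Of the markers that define NSCs, Nes was at 1106 to 2318 CPM and Sox2 at 103 to 127 CPM in the 9 libraries, while Gfap was low at 0.48 to 1.63 CPM. Microglial markers summed to at most 0.57 CPM (1 of 8 could be tested, and it fell), with Aif1 at no more than 0.08, and Pecam1 was at no more than 0.36 CPM. Beside the falls of the Fanconi genes at 6 h, the summed level of 8 endothelial and mural markers went from between 55.3 and 100.3 CPM at 0 h to between 34.5 and 49.4 CPM, with 4 of the 6 tested lower and 1 higher. Most of this sum was Acta2, smooth muscle actin, at 47.8 to 94.3 CPM at 0 h and 25.2 to 44.7 CPM at 6 h, while Cdh5 and Cldn5, which define endothelium, were at no more than 0.03 CPM, and the marker that rose was Pdgfrb, from at most 0.39 CPM to at least 0.63 CPM. Oligodendrocyte lineage markers went from between 1696 and 2294 CPM to between 2170 and 2517 CPM (5 of 8 rose), with Olig2 at 545 to 701 CPM at 0 h and 708 to 849 CPM at 6 h. Of the other lists, 4 of 12 NSC markers rose and 4 fell, 4 of 8 neuron and neuroblast markers rose and 1 fell, 2 of 6 astrocyte markers rose, and 2 of 4 tested ependymal markers fell. Over all tested genes, 3282 of 18858 were called higher and 3299 lower at 6 h against 0 h. Neuron and neuroblast markers, mostly Map2, summed to 978 to 1517 CPM at 0 h and 1014 to 1600 CPM at 6 h. Astrocyte markers, mostly Aldoc, summed to 826 to 1046 CPM and 1032 to 1216 CPM. Ependymal markers, mostly Foxj1, summed to 47.4 to 88.5 CPM and 39.6 to 61.2 CPM. Foxj1 fell, at -0.36 ± 0.07. Tubb3 rose by 1.06 ± 0.09 and Pdgfra by 0.31 ± 0.07, while Dcx, at -0.35 ± 0.24, did not pass. The part of these markers in the changes of the Fanconi genes was not tested.

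Genes on the opposite strand share exonic bases with 8 of the 10 members, from 3.24% of the exonic length of Fancd2 (with Fancd2os) to 18.6% of Fancc (mostly with Gm16133), and with none of Fancb and Fancg. The library was stranded, and the strand setting of the counting is not given in the sources used here, so reads in shared bases could have been left out or counted to either gene. Polg, which shares 16.0% of Fanci, was also lower at 6 h (-0.15 ± 0.05, edgeR adjusted p = 0.0322). Zfp276, Gas2 and Vrk2, which overlap Fanca, Fancf and Fancl, had fold changes between 0.07 and 0.09 at 6 h that did not pass, and Gm16133 and Fancd2os were too low to be tested.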

How the data were processed

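The authors deposited raw counts of paired-end reads per Ensembl gene, aligned to mm10 (GRCm38) and counted with STAR 2.5.3a per the labels. The submitters' processing notes also name FastQC and DESeq2 1.22.1. The counts were not normalised by the authors, and the annotation release and strand setting of the counting are not given in the sources used here. The total count was 65871454 to 105592597 per library, and the members had at least 188 counts per library. No libraries agreed within sampling noise (chi-square per degree of freedom of at least 13.6). Symbols came from GENCODE M21, which held 48144 of 48526 identifiers.

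Counts were fitted in R 4.3.3 with edgeR 4.0.16 (glmQLFit and glmQLFTest, TMM, filterByExpr with a minimum count of 10 and a minimum total of 15), with time and replicate number as factors, over all 9 libraries. The Benjamini-Hochberg adjustment ran over 18858 genes, with a threshold of 0.05, and standard errors were derived from the F statistic. The block is in the main fit because the rule for these genes pairs the libraries by replicate letter. After the mean of each time was subtracted, libraries of the same number correlated at 0.733 to 0.800 (9 pairs) and others at -0.462 to -0.314 (18 pairs). The labels give the numbers and do not say what they share, nor that replicates were separate cultures or animals, so p-values measure the spread between these samples. The common biological coefficient of variation was 0.0627 with the block and 0.277 without it.

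Alternatives were no block, DESeq2 1.42.0 with and without it, RLE, library totals, no filter, a mean of at least 1 CPM, only the 6 libraries compared, each library left out, GC and length trends removed, and an adjusted p under 0.01. The genes named are the 10 members, up to 6 other pathway genes per direction at 6 h and 3 at 1 h, up to 3 replication and mitosis genes per direction, the defining markers, and the 5 genes most like Fancc and Fancd2; partners of a member and genes that overlap one were added to these after their values were seen. Palb2, Slx4, Ercc4, Brca2, Ercc1, Acta2, Cdh5, Cldn5, Pdgfrb, Map2 and Aldoc were named outside these limits. The members and lists were chosen with earlier results of these data known. The fits were run on counts simulated from the main fit itself, which cannot show whether its model holds for these data. Tables and figures used Python 3.11.15, pandas 2.3.3, numpy 2.4.6 and matplotlib 3.10.9. 1 pathway gene that the naming rule covers is not reported here, though the counts include it. Splicing and in situ hybridisation were not analysed here.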

Additional observations from a re-analysis of the deposited data

How the results depend on the processing

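Members called lower at 6 h against 0 h numbered 6, and numbered 0 without the replicate block, 1 with DESeq2 without the block, 2 at an adjusted p under 0.01 and 2 to 6 when 1 library was left out; 1 member was higher with only the 6 libraries compared. At 6 h against 1 h the 6 lower calls became 0 without the block, 1 with DESeq2 without it, 2 with only the 6 libraries compared, 1 at an adjusted p under 0.01 and 1 to 6 with a library left out, and 1 member was higher with library totals, no filter or a mean of at least 1 CPM (0 to 1 with a library left out). The median log2 fold change of the members was -0.17 with library totals at 6 h against 1 h, and with a library left out it was -0.196 to -0.163 at 6 h against 0 h, -0.209 to -0.158 at 6 h against 1 h and -0.0598 to 0.00803 at 1 h, where it turned positive without 1 h replicate 1. Other pathway genes lower at 6 h against 0 h were 0 without the block, 2 with DESeq2 without it and 8 to 15 with a library left out. Those higher were 0 without the block by either tool and at 0.01, 2 with DESeq2 with the block, RLE, library totals or a mean of at least 1 CPM, 3 with no filter or the 6 libraries, and 0 to 3 with a library left out. At 1 h, 3 lower calls became 0 without the block or at 0.01, 1 with DESeq2 without it, 6 with DESeq2 with the block, library totals or no filter, and 0 to 5 with a library left out. At 6 h against 1 h there were 7 lower calls and 4 higher, with 0 and 0 without the block, 1 and 2 with DESeq2 without it, 4 lower at 0.01, and 3 to 9 lower and 3 to 5 higher with a library left out. Single genes turned sign where the fold change was near 0: Fanca at 6 h against 0 h (-0.02825 with GC and length trends removed, -0.0459 to 0.134 with a library left out) and against 1 h (-0.01355 and -0.00421 to 0.184), and at 1 h against 0 h with a library left out Fanca (-0.149 to 0.0231), Fancb (-0.111 to 0.0427), Fance (-0.104 to 0.0403) and Fancg (-0.0796 to 0.0623). The cause of these changes was not tested.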
